A study of Rattus norvegicus with 8 samples.

Results

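The genes described here are 9 receptors of macrophages that take up particles, lipids, sugars or haemoglobin: Marco, Msr1, Scarb1, Olr1, Colec12, Cd163, Stab1, Mrc1 and Clec7a. They were found by gene name among the probes of the array. Of the 9 genes, 8 had a probe under that name, with 11 probes in all of the 45598 on the array, and Stab1 had none. Of these, 5 genes, measured by 8 probes, passed the filter on dim signals (below) and were tested among 17444 genes: Msr1, Scarb1, Mrc1, Clec7a and Olr1. The other 3 with a probe, Marco, Colec12 and Cd163, were not well above background on any of the 8 arrays.

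The cells were NR8383, an established rat alveolar macrophage line that was started from lung lavage of a normal rat and grows as a mixture of adherent and floating cells. Control cells stood for 4 h in serum-free medium with 0 µg/mL of NM401, and exposed cells for 4 h in the same medium with 0.17 µg/mL of NM401, a multi-walled carbon nanotube, a hollow fibre of rolled carbon sheets. Each group had 4 biological replicates, so the data were 8 one-colour arrays on which Cy3-labelled copies of the RNA were hybridised to 60-base probes. The labels do not say what separated the replicates, and if they were dishes of 1 culture, the p-values measure only the spread between dishes. All groups were of 1 cell line, 1 dose and 1 time, and the comparison was of NM401 against control.

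Scavenger receptors are a loose group of surface proteins that bind modified lipoproteins, microbes and uncoated particles without the help of antibody or complement. Marco and Msr1 are class A receptors, trimers with a collagen-like stalk, and are known in alveolar macrophages for binding inhaled mineral and carbon particles. Scarb1 is a class B receptor for high-density lipoprotein, Olr1 and Colec12 carry C-type lectin domains, Cd163 and Stab1 clear haemoglobin complexes and altered proteins, and Mrc1 and Clec7a recognise mannose and fungal β-glucan.

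The sequences that 5 of the 11 probes read are printed here because the values below rest on them, 1 for each receptor that rose or fell and 1 for Marco. They come from the deposited scanner files, 5′ to 3′, in lower case, and their positions are those of rat build rn4 per the files. Capitals in the Marco probe mark 7 GGN triplets, the codons of glycine, which recur over the whole probe with a pair of other codons between them, the repeat of a collagen-like stretch. The rn4 annotation of exons and untranslated regions was not used here, but the Marco, Scarb1 and Mrc1 probes span 163, 2996 and 2608 bases of genome and so cross at least 1 intron.
Msr1 A_44_P928825: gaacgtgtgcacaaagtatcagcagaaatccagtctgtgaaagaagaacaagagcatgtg
Scarb1 A_44_P379244: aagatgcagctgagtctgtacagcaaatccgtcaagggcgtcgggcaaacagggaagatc
Mrc1 A_43_P18738: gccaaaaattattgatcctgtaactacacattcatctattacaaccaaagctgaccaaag
Clec7a A_64_P141160: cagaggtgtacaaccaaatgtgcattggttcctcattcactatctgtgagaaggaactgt
Marco A_44_P175833: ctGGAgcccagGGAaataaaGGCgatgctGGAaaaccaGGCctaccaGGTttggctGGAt

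Levels are given as the log2 of the deposited processed signal from which the log2 of that array's 75th percentile, taken over its non-control spots, was subtracted, so that a level of 0 is the signal that 75 percent of those spots do not exceed. They compare arrays for 1 probe and not probes with each other. A probe was tested if it was well above background, by the mark in the scanner files, on at least 4 of the 8 arrays. A gene was called where limma's p was below 0.05 after Benjamini-Hochberg adjustment across every probe that was tested, and a gene with several tested probes was represented by the brightest. A difference is the NM401 mean minus the control mean, a log2 fold change, given ± its standard error (SE) from the fit, with n = 4 arrays in each group.

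The arrays differed in overall brightness before this scaling. The 75th percentile signal was 958 to 1489 on control arrays and 2537 to 2878 on NM401 arrays (two-sided exact permutation p = 0.0286, the smallest that 4 against 4 allows). Between 51.7% and 56.04% of probes were well above background on control arrays and between 53.95% and 58.01% on NM401 arrays. Control spike-ins, RNA added to every sample in labelling, had a median difference of -2.39 on the scaled values (7 probes, -2.55 to -1.80). Whether spike-in amount or RNA input differed is not known. Higher and lower below therefore mean relative to the 75th percentile of the array. Set against the spike-ins all 5 tested receptors would be higher with NM401, since each of their log2 fold changes lies above -2.39. The same holds for most tested genes, whose median difference was -0.10 and of which 6.09% were called lower by at least 1 log2 unit. It therefore says nothing particular about the receptors. Slide 1 carried the controls together with NM401 replicate 1, and slide 2 carried the other 3 NM401 arrays. Controls always lay in row 1 and exposed samples in row 2, so row and exposure cannot be told apart. Of 16 macrophage markers on the array, Msr1, Mrc1 and Marco among them, 14 were well above background on all 8 arrays and Marco on none. Their summed level was 187 to 196 on control and 181 to 193 on NM401 arrays (in units of the 75th percentile signal). Single markers moved: of 15 tested, 5 were called higher and 3 lower, where 21.9% and 35.4% of all tested genes were. Their differences ran from -0.59 (Mrc1) to 2.06 (Fabp4). Among markers of other cells, 6 of 12 epithelial (Epcam and Cdh1 among them), 6 of 12 lymphocyte (Cd3e and Cd3g), 6 of 12 fibroblast or endothelial (Col1a1 and Pdgfra) and 5 of 10 neutrophil genes (Elane and Cxcr2) were well above background on no array. Other genes of these lists were well above background on all 8 arrays: Ager and Foxj1 (epithelial), and Cd22, Cd3d, Cd4 and Lck (lymphocyte). So were Cdh5, Col1a2, Dcn, Pecam1 and Vwf (fibroblast or endothelial) and Camp (neutrophil). The summed levels of these lists on control and NM401 arrays were 0.223 to 0.264 and 0.227 to 0.286 for epithelium and 7.43 to 8.03 and 8.83 to 10.3 for lymphocytes. They were 2.93 to 3.81 and 3.12 to 3.22 for fibroblasts and endothelium, and 0.496 to 0.681 and 0.331 to 0.449 for neutrophils. Tested were 2 epithelial, 5 lymphocyte, 5 fibroblast or endothelial and 3 neutrophil genes. Of these, in that order, 1, 1, 1 and 0 were called higher and 0, 2, 2 and 3 lower. The shares over all tested genes were 21.9% and 35.4%. Differences of these genes ran from -3.11 (Mpo) to 1.49 (Dcn). Mpo and the neutrophil gene S100a8 were well above background on 4 of the 8 arrays, the fewest that the filter allows. They may have passed it only through the arrays where they are high, so their calls are no evidence of their own. The part of other cells in the results was not tested. In these bulk samples fewer cells of a kind and less RNA per cell cannot be told apart.

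The receptors did not move as a group. Msr1 rose about 2.09-fold with NM401, while Scarb1, Mrc1 and Clec7a fell to between 64.4% and 81.5% of control and Olr1 was at 75.6% of control without passing the test. That is 1 of 5 tested receptors higher, where 21.9% of all tested genes were called higher, and 3 of 5 lower, where 35.4% were. The groups did not overlap for 4 of the 5, against 53.2% of all genes. Counted by probe, 2 of the 8 tested probes were called higher and 5 lower, where 22.1% and 34.1% of all tested probes were. The median difference of the 5 was -0.40 and that of all genes -0.10. In a comparison in which 57.3% of genes were called, shares of this size among 5 genes are close to the background and say nothing particular about scavenger receptors.

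**Figure D1:**
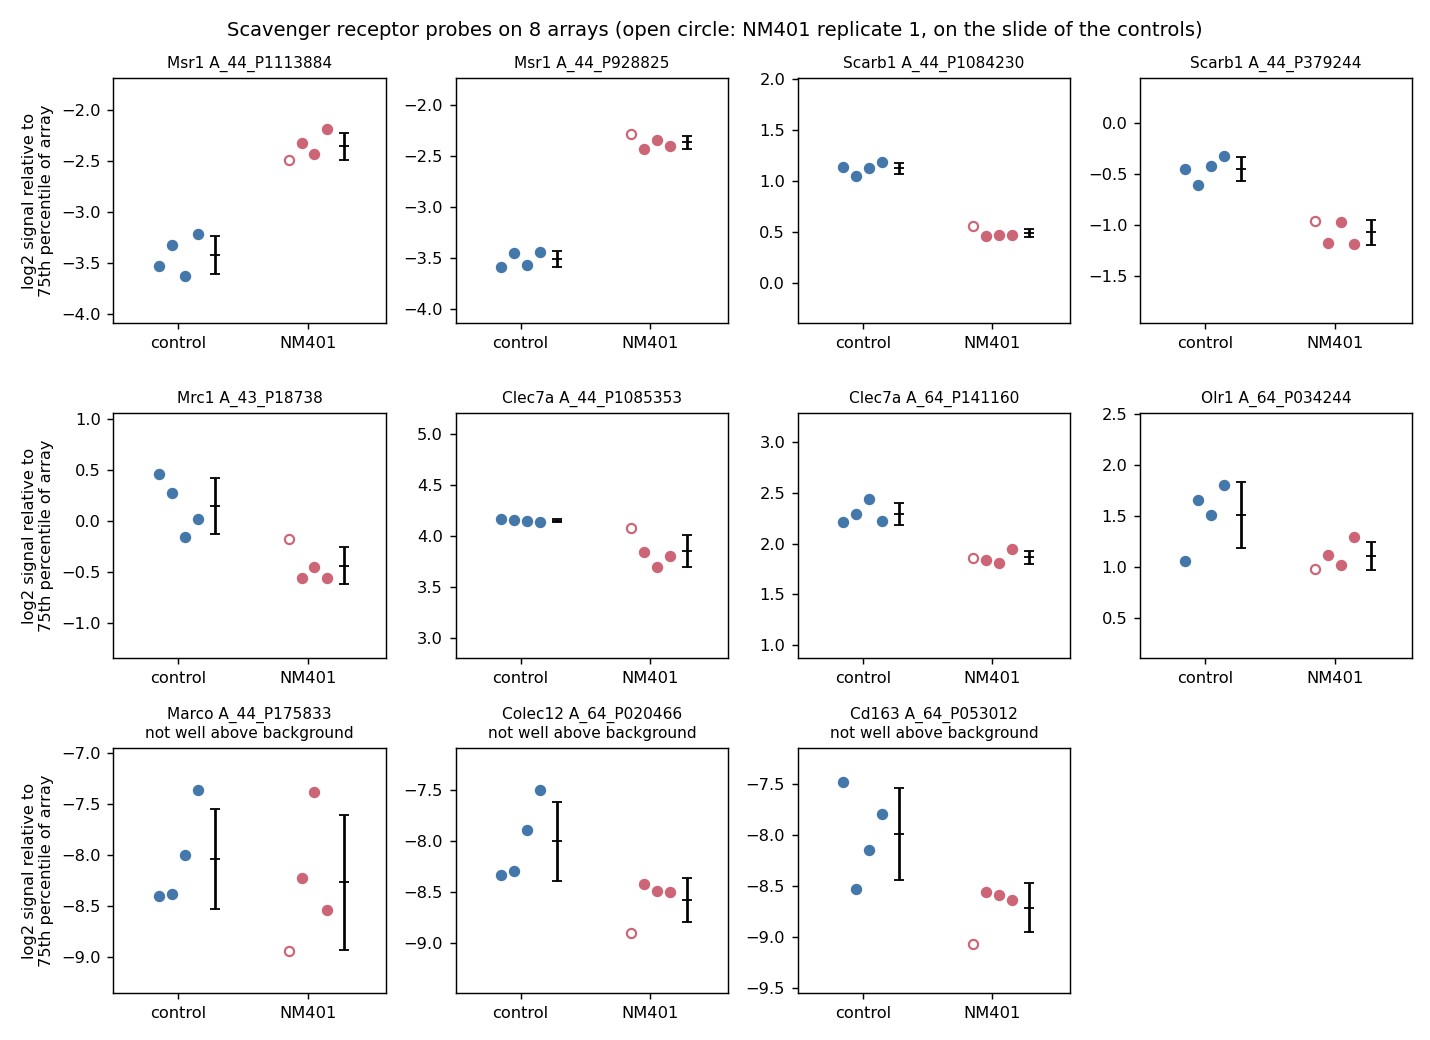
Levels of the 11 receptor probes on each array (vertical axis, log2 signal relative to the 75th percentile of the array, all panels of equal span), with the 4 control arrays in blue, the 4 NM401 arrays in red, and the mean ± SD in black. The NM401 arrays lie above all controls for both Msr1 probes and below them for the Scarb1, Mrc1 and Clec7a probes, and the groups overlap for Olr1 and Marco.

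Msr1, the class A scavenger receptor that binds acetylated lipoprotein and many polyanionic surfaces, was the receptor that rose. At its representative probe A_44_P1113884 (chr16:56309938-56309997) the control arrays 1 to 4 read -3.53, -3.32, -3.62 and -3.21, and the NM401 arrays 1 to 4 read -2.49, -2.32, -2.43 and -2.18. Every NM401 array was above every control array, by 0.72 log2 units at the closest pair. The means were -3.42 ± 0.19 and -2.35 ± 0.13 (SD, n = 4), a difference of 1.06 ± 0.11 SE, or 2.09-fold with a 95% confidence interval of 1.76 to 2.48 (limma adjusted p = 0.00016). The other Msr1 probe, A_44_P928825 (chr16:56293586-56293645), printed above, read -3.59, -3.45, -3.56 and -3.44 on control arrays and -2.28, -2.43, -2.34 and -2.39 on NM401 arrays. Its groups were apart as well, and its fold was 2.22 (2.01 to 2.44, limma adjusted p = 2.88e-05). The changes at both probes differed by -0.08, less than the spread between arrays (exact permutation p = 0.457, adjusted 0.686 over the 3 receptors with 2 tested probes). Among all genes, 1.63% had a larger increase than Msr1, and 1.89% were called higher by at least 1 log2 unit, as Msr1 was. Lower calls of that size made up 6.09% of genes, and the largest decrease among the receptors was -0.63. Within slide 1, where NM401 replicate 1 stood beside the 4 controls, Msr1 was higher by 0.93 (limma adjusted p = 0.0438, with the lone NM401 array assumed to vary like the controls).

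The size of the Msr1 rise moved with the handling of background. With normexp background correction it was 0.58, and with the deposited series table, whose values are median pixel intensities with no background taken off, it was 0.72. Msr1 stayed called higher in all 20 alternatives run, with adjusted p from 4.33e-05 to 0.0438. The 3 genes whose differences from the control mean were most like those of Msr1 over the 8 arrays were Ifgga2l2, Atf3 and Siglec5, with root mean square distances of 0.0882, 0.0915 and 0.0918 log2 units. Atf3 is a stress-induced transcription factor and was higher by 0.99 ± 0.12 (limma adjusted p = 0.000285).

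Scarb1, the receptor for high-density lipoprotein that also binds oxidised lipids and dying cells, was lower at both of its probes. Probe A_44_P1084230 (chr12:32457600-32457659) read 1.14, 1.05, 1.13 and 1.18 on control arrays 1 to 4 and 0.56, 0.47, 0.47 and 0.47 on NM401 arrays 1 to 4. The groups were separated by more than the range of either group. The means were 1.13 ± 0.06 and 0.49 ± 0.04 (SD, n = 4), and NM401 stood at 64.4% of control, a difference of -0.63 ± 0.05 with a 95% interval of -0.75 to -0.51 (limma adjusted p = 8.19e-05). The probe printed above, A_44_P379244 (chr12:32447458-32450453), read -0.45, -0.60, -0.42 and -0.32 on control and -0.95, -1.17, -0.97 and -1.18 on NM401 arrays. It gave 65.1% of control (limma adjusted p = 0.000594), and the changes at both probes differed by -0.01 (exact permutation p = 0.886, adjusted 0.886). A larger decrease than that of Scarb1 was seen in 14.8% of genes, so its fall was of ordinary size for these arrays. It was -0.57 within slide 1 (limma adjusted p = 0.0417) and was called lower in all 20 alternatives, from -0.66 to -0.43. The genes most like it were Sap18, Aldh16a1 and Aqr, at distances of 0.0381, 0.0394 and 0.0467 log2 units.

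Before scaling, the processed signal of Scarb1 at A_44_P1084230 was 2900, 3080, 2590 and 2180 on control arrays and 4230, 3500, 3880 and 3540 on NM401 arrays. The unscaled signal was thus higher on every NM401 array, and the lower level after scaling is a level relative to the other probes of the array.

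Mrc1, the mannose receptor that binds sugar-bearing glycoproteins and marks alternatively activated macrophages, had the widest spread among the receptors that fell. Probe A_43_P18738 (chr17:88489156-88491763) read 0.46, 0.27, -0.16 and 0.02 on control arrays 1 to 4 and -0.18, -0.56, -0.45 and -0.56 on NM401 arrays 1 to 4. The groups did not overlap, but control 3 and NM401 replicate 1 lay 0.02 apart. The means were 0.15 ± 0.27 and -0.44 ± 0.18 (SD, n = 4), a difference of -0.59 ± 0.15 or 66.6% of control, with a 95% interval of -0.92 to -0.25 (limma adjusted p = 0.0101). With the slide as a block, and likewise within slide 1, the difference was -0.33 and the call was lost (limma adjusted p = 0.274 and 0.392). Slide 2 held no control, so both fits take their estimate from the single NM401 array of slide 1 and are not separate checks, for this and the other receptors. With median scaling it was -0.38 and still called (limma adjusted p = 0.0421). Mrc1 had 1 probe, so no other probe bears on it.

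Clec7a, which encodes Dectin-1, the receptor for fungal β-glucan, fell by less. Probe A_44_P1085353 (chr4:166723633-166723692), the mean of 2 spots, read 4.16, 4.15, 4.14 and 4.13 on control arrays and 4.07, 3.84, 3.70 and 3.80 on NM401 arrays. The controls were within 0.03 of each other, and NM401 replicate 1, on their slide, was the NM401 array closest to them. NM401 stood at 81.5% of control, a difference of -0.30 ± 0.08 (limma adjusted p = 0.014). The probe printed above, A_64_P141160 (chr4:166725168-166725227), read 2.21, 2.29, 2.44 and 2.22 on control and 1.86, 1.84, 1.81 and 1.95 on NM401 arrays, which is 74.3% of control (limma adjusted p = 0.0011). At both probes all 4 NM401 arrays, replicate 1 included, lay below the controls. The closest pair was 0.06 apart at the brighter probe and 0.27 apart at the printed one. The changes at both probes differed by 0.13 (exact permutation p = 0.286, adjusted 0.686).

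The call on Clec7a at its brighter probe depended on scaling and slide. It was lost with quantile normalisation (-0.10, limma adjusted p = 0.306), with median scaling (-0.09, 0.385), without the filter on dim probes (adjusted p = 0.0515), with the slide as a block (-0.08, 0.491) and within slide 1 (-0.08, 0.606). A larger decrease than that of Clec7a was seen in 33.4% of all genes.

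Olr1, which encodes LOX-1, a receptor for oxidised low-density lipoprotein, did not pass the test. Its probe A_64_P034244 (chr4:166747403-166747462) read 1.06, 1.66, 1.51 and 1.80 on control arrays and 0.98, 1.12, 1.02 and 1.29 on NM401 arrays. Control 1 lay among the NM401 arrays, and the other 3 controls lay above all of them. The difference was -0.40 ± 0.16, with a 95% interval of -0.77 to -0.04 before adjustment (limma adjusted p = 0.0573). Without control replicate 1 it was -0.56 (limma adjusted p = 0.00424), and over all alternatives the adjusted p ran from 0.00424 to 0.307. With median scaling it was -0.20 (limma adjusted p = 0.307), and within slide 1 -0.53 (limma adjusted p = 0.253).

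**Figure D2:**
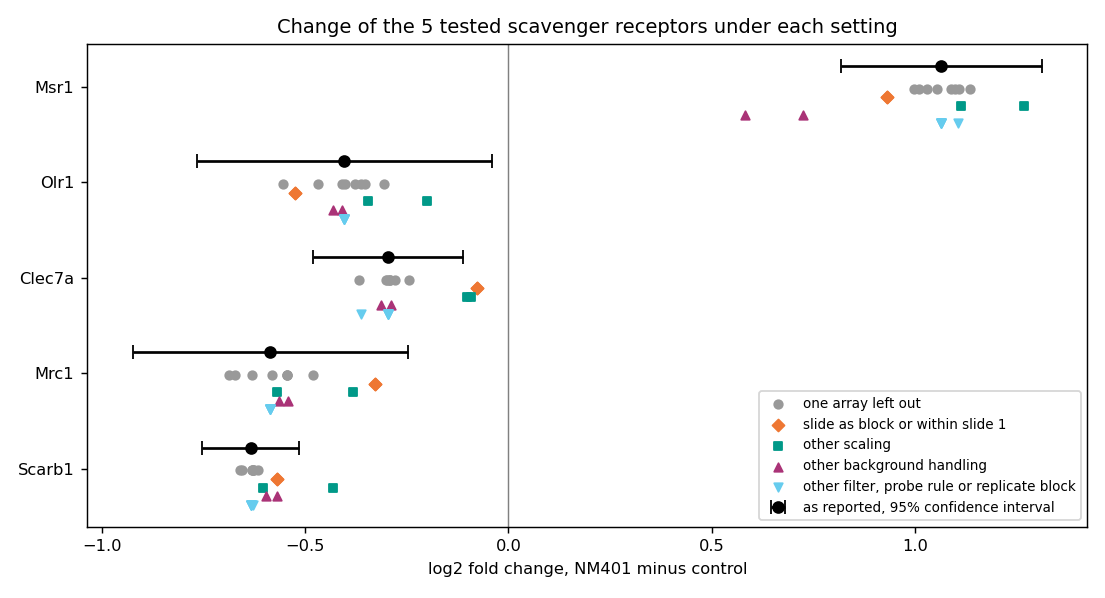
Log2 fold change, NM401 minus control, of the 5 tested receptors as reported (black, with 95% confidence interval) and under each alternative (coloured by kind). Msr1 stays to the right of 0 and Scarb1 to the left under every setting, while Clec7a lies between -0.10 and -0.08 with another scaling and with the slide taken into account.

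The remaining receptors gave no level that could be told from background. Marco, the class A receptor most often named for uncoated particles in alveolar macrophages, read -8.40, -8.38, -8.00 and -7.36 on control arrays and -8.94, -8.22, -7.38 and -8.53 on NM401 arrays (chrUn:9449917-9450079, an unplaced stretch). These values overlap throughout, at processed signals of 3.89 to 16.9 against a 75th percentile of 958 or more. Colec12, a collectin-type receptor for sugars and oxidised lipids, read -8.33, -8.29, -7.89 and -7.50 on control and -8.90, -8.42, -8.48 and -8.50 on NM401 arrays (chr18:1185622-1185681). Cd163, the receptor for haptoglobin-bound haemoglobin, read -7.48, -8.52, -8.15 and -7.79 on control and -9.07, -8.55, -8.58 and -8.63 on NM401 arrays (chr4:160423704-160423763). The lowest value of any probe well above background was -7.66 to -6.34, depending on the array, and averaged -6.82 on control and -7.36 on NM401 arrays, so no fold is given for these 3. The NM401 values of Colec12 and Cd163 lay below all controls, by 0.09 and 0.03 at the closest pair, at signals where no probe of either was detected. Each was measured by 1 probe, and a low signal at 1 probe does not show that a transcript is absent.

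Stab1, stabilin 1, was named in the description of 1 probe whose gene name is an Ensembl identifier, a match made after the data were seen. That probe, A_44_P1060432 (chr16:6567756-6568150), read -7.56, -6.35, -5.67 and -7.60 on control and -8.58, -8.06, -7.80 and -7.15 on NM401 arrays. It was well above background on 1 control array and on 0 NM401 arrays and was not tested.

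Clec7a and Olr1 are adjacent genes in the RefSeq order of assembly GRCr8, in a cluster of C-type lectin genes, and their nearest probes lay 22176 bases apart on rn4 chromosome 4. Of the 10 protein-coding genes on each side, 19 of 20 were on the array and 7 were tested. Of those 7, 3 were called higher, where 21.9% of all genes were, and nothing particular to the cluster is read from 7 genes. They were Clec12a, an inhibitory lectin, higher by 0.33 ± 0.08, Clec9a, a receptor for dead cells, by 0.88 ± 0.12, and Tmem52b by 0.63 ± 0.05 (limma adjusted p = 0.00703, 0.000646 and 9.17e-05). The other 4, Clec2g, Clec12b, Clec1a and Gabarapl1, were not called.

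**Figure D3:**
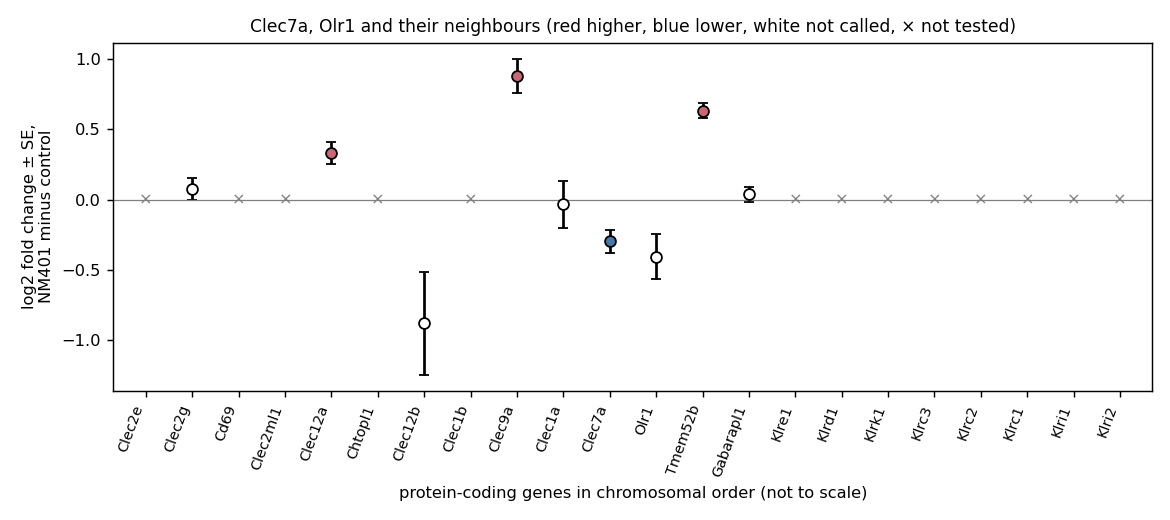
Log2 fold change ± SE, NM401 minus control (vertical axis), of Clec7a, Olr1 and the 10 protein-coding genes on each side in chromosomal order (horizontal axis, not to scale). Clec12a, Clec9a and Tmem52b are called higher, Clec7a lower, and crosses mark genes with no test.

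Promoter sequence was available from RefSeq (GRCr8) for 7 of the 9 receptors, and not for Msr1 and Scarb1. The 250 bases before the start site are shown for the receptors that fell and had an entry, Mrc1 (chr17:82157475-82157724, plus strand) and Clec7a (chr4:164599828-164600077, minus strand), in the direction of transcription, with matches in capitals. Both strands were searched for GAGGAA, the core of sites for the macrophage factor PU.1, GGGCGG, the Sp1 box, TGANTCA, the AP-1 site, and TGACNNNGC, the core of the antioxidant response element; no 2 matches overlap in the promoters shown.
Mrc1 promoter: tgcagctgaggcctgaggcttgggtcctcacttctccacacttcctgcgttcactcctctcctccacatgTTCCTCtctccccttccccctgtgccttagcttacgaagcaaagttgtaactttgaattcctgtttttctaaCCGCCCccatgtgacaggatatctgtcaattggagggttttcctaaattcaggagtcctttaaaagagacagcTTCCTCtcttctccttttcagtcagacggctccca
Clec7a promoter: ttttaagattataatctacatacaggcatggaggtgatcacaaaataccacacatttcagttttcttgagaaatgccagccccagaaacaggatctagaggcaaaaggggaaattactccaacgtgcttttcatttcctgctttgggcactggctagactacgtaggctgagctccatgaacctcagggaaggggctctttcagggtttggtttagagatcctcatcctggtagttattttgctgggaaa

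Mrc1 held 2 matches to GAGGAA, 180 and 35 bases before the start, and 1 to GGGCGG at 108 bases, all on the opposite strand, and Clec7a held none of the 4 motifs in this window. Of the 7 receptors with a promoter, 5 held GAGGAA (Olr1, Marco, Stab1, Mrc1 and Colec12), against 23.3% of 33469 rat promoters. GGGCGG was in 2 of the 7 and in 30.5% of promoters. TGANTCA was in 1 of the 7, Olr1, and in 6.34% of promoters, and TGACNNNGC was in 0 of the 7 and in 10.1%. A match is a run of letters and not a bound site.

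Other genes of the same families and pathways were described from fixed lists. Of 21 other scavenger receptors, 13 were tested, 2 were higher and 2 lower, so 30.8% were called against 57.3% of all genes, with a median difference of 0.02. Scara5, a ferritin receptor of class A like Msr1, was higher by 1.70 ± 0.31 (limma adjusted p = 0.00222). It was well above background on 2 control and 4 NM401 arrays. Scara5 is counted among the 2 higher, but its controls alone would not have met the filter, so its call is no evidence of its own. Its difference was 0.28 with normexp correction and 0.45 with the series table, and was not called there or with the slide as a block. Ager, the receptor for advanced glycation products and also among the epithelial markers above, was higher by 0.99 ± 0.09. Cd68, a macrophage lysosomal scavenger protein, was lower by 0.36 on the log2 scale (difference -0.36 ± 0.06, limma adjusted p = 0.00113). Cd36, the class B relative of Scarb1 that binds oxidised lipoprotein, stood at 0.02 ± 0.05 (limma adjusted p = 0.779), but was called higher with quantile normalisation (0.35, limma adjusted p = 0.00123) and with median scaling (0.22, 0.0204). The difference of Ager was 0.29 and that of Clec9a (above) 0.24 at their smallest over the alternatives. Of the genes in this and the next 4 paragraphs, Scara5, Clec4d, Itpr1, Ptpn6, Maf and Amph were named by a rule on size or p and the others after their values were seen. Ager, Adam17, Clec9a and Tmem52b were called in every alternative run. Each of the other called genes named from these lists, and Clec12a, lost its call in at least 1. Left out of this are Eea1, Eps15, Snx9 and Picalm, which were not followed over the alternatives.

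Of 29 other C-type lectin receptors, relatives of Mrc1, Clec7a and Olr1, 15 were tested, 6 were higher and 5 lower. That is 73.3% called against 57.3% of all genes, with a median of -0.03. Clec4d, a receptor for mycobacterial lipid, was well above background on 4 NM401 arrays and 0 control arrays. It is counted among the 6 higher but passed the filter only through the NM401 arrays, so its call is no evidence of its own. On the processed signal its means were -6.51 ± 0.20 on control and -5.13 ± 0.12 on NM401 arrays (SD, n = 4), while the difference was -0.23 with normexp correction and -0.019 with the series table, neither called, so its direction depends on how background is handled. Clec5a, a partner of the DAP12 adaptor, was higher by 0.61 ± 0.12 and Mrc2, the collagen-binding relative of Mrc1, differed by -0.42 ± 0.04 (limma adjusted p = 0.00294 and 0.000178).

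In the signalling chain below Dectin-1, 20 of 23 genes were tested, with 4 higher and 8 lower. That is 60% called against 57.3% of all genes, with a median of -0.09. Itpr1, a calcium release channel, was lower (-0.59 ± 0.06, limma adjusted p = 0.00021), as was Ptpn6, the phosphatase SHP-1 (-0.45 ± 0.05, limma adjusted p = 0.000157), although with quantile normalisation Ptpn6 was at 0.035 and not called. Pik3cd, a kinase of membrane lipid, was lower as well (-0.75 ± 0.16, limma adjusted p = 0.00439). Bcl10, which joins Card9 to downstream signalling, was higher by 0.25 ± 0.07 (limma adjusted p = 0.0129). Syk, the kinase that Dectin-1 recruits, stood at 0.02 ± 0.08 and Card9 at -0.08 ± 0.05, neither called (limma adjusted p = 0.855 and 0.223).

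Among genes that control or shed the receptors, 15 of 17 were tested, with 6 higher and 3 lower. That is 60% called against 57.3% of all genes, with a median of 0.16. Spi1, which encodes PU.1, a transcription factor of the macrophage lineage, was higher by 0.56 ± 0.11 (limma adjusted p = 0.00263). Adam17, a protease that sheds surface receptors, was higher by 0.46 ± 0.08, and Pparg, the lipid sensor of alveolar macrophages, differed by -0.40 ± 0.09 (limma adjusted p = 0.00192 and 0.00751). Maf was lower at its brightest probe (-1.54 ± 0.17, limma adjusted p = 0.00021), but of its other probes one was called higher (0.67 ± 0.12) and one was not called (0.21 ± 0.09), so its direction is not settled.

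Of the clathrin, caveolar, flotillin and endosome genes listed as uptake machinery, 21 of 25 were tested, with 4 higher and 9 lower. That is 61.9% called against 57.3% of all genes, with a median of -0.16. Amph, an adaptor that curves membranes, is counted among the 9 lower but was measured above background on 4 controls and 1 exposed array, so it passed the filter through the controls. Its means were -5.27 ± 0.44 on control and -7.09 ± 0.96 on NM401 arrays (SD, n = 4), the latter near the lowest measurable level, and it was not called with the slide as a block or within slide 1. The clathrin heavy chain gene Cltc (-0.43 ± 0.05), the adaptor subunit Ap2m1 (-0.45 ± 0.06) and the pinching enzyme Dnm2 (-0.37 ± 0.06) were lower, with limma adjusted p of 0.000386, 0.000639 and 0.00161. The 4 called higher were Eea1 (0.98 ± 0.19), Eps15 (0.35 ± 0.07), Snx9 (0.31 ± 0.08) and Picalm (0.27 ± 0.05). Their limma adjusted p were 0.00305, 0.00387, 0.00957 and 0.00269. Eea1 was well above background on 3 control and 4 NM401 arrays, so its controls alone would not have met the filter. Over all 5 lists, 22 genes were higher and 27 lower, Clec4d, Scara5, Eea1, Amph and Maf included. Of all tested genes, 21.9% were called higher and 35.4% lower, and no result about these lists is read from the counts.

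**Figure D4:**
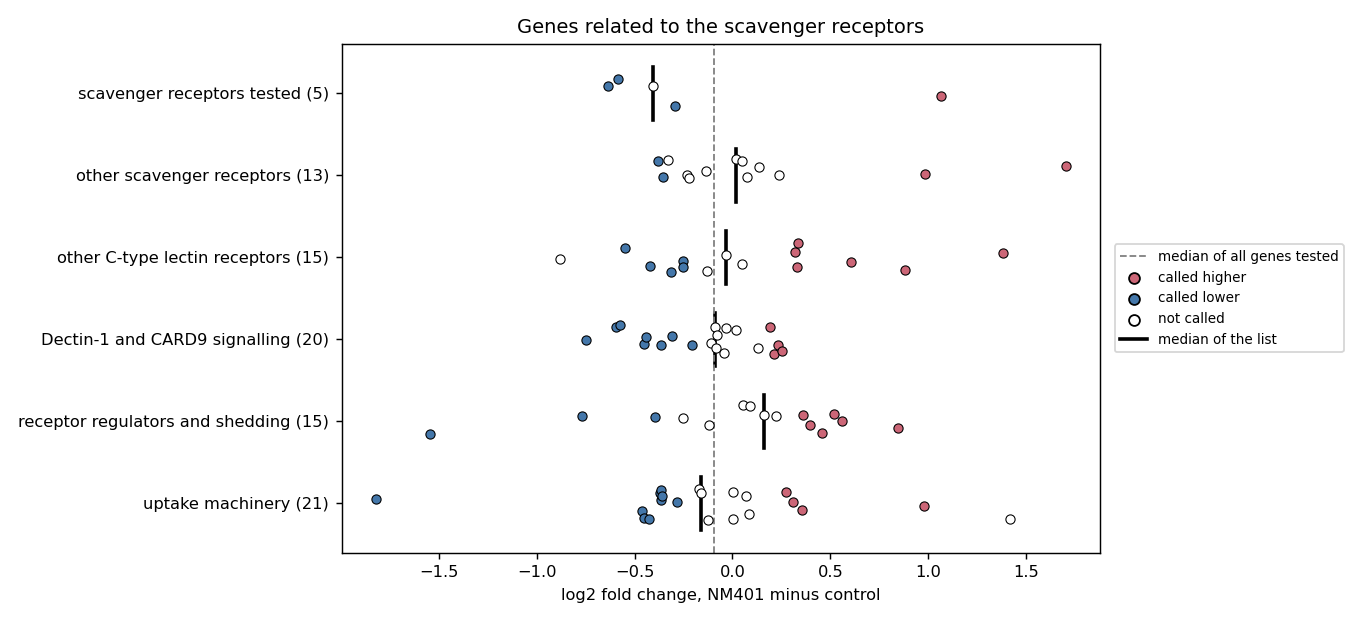
Log2 fold change, NM401 minus control (horizontal axis), of each tested gene of the receptors and of 5 related gene lists (vertical axis, number tested in brackets), with called genes filled and list medians as black bars. Called genes lie on both sides of 0 in each list, and the medians of the 5 lists run from -0.16 to 0.16, beside -0.10 for all genes (dashed).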

How the data were processed

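Expression was measured in NR8383 cells, 4 control and 4 NM401 arrays. The authors deposited spot intensity values from the scanner software, which the submitters' processing notes and the files name as Agilent Feature Extraction, version 11.0.1.1; the processed signal is background-subtracted within each array and not scaled between arrays, per the file headers. The deposited matrix of the whole series held the median pixel intensity of the same spots (503808 of 503808 values equal), linear and neither centred nor scaled; column medians were 73 to 110. Log2 values, scaled as described above, were computed from the deposited intensity.

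Spots marked as outliers were not used, repeat spots were combined as the mean of their log2 values, and 47 probes had no usable spot on some array; 21684 probes were tested with limma 3.58.1 (lmFit, eBayes) in R 4.3.3 with the data.table package (version 1.17.8). Accessions were named through the RefSeq gene names of GRCr8, which matched 21109 of 45598 probes and 10 of the 11 receptor probes. The test was checked on simulated data with independent noise and changes in a small part of the probes. The simulation held no slide, row or brightness difference, so it does not cover these features of the arrays. The number of arrays limits the precision. The receptors and gene lists were chosen with earlier results of these data known. Named by rule were all receptors; of each list, genes called without overlap and changed by at least 1 log2 unit, or otherwise up to 2 with the smallest p; and the 3 genes most like the receptor with the largest change in each direction. Alternatives were normexp correction (offset 50), quantile and median scaling, other filters and probe rules, the series table, the slide and the replicate number as blocks, slide 1 alone, and leaving out each array; matching Stab1 by description was added after seeing the data.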

Additional observations from a re-analysis of the deposited data

Results flagged for a closer look

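Among 22 groups of 4 arrays, 1 for each receptor probe and condition, 2 had an array far from the rest by Dixon's ratio of gap to range (above its 95% critical value); chance gives about 1 in 20. Scarb1 at A_44_P1084230 read 0.556 on NM401 replicate 1 and 0.466 to 0.472 on the other NM401 arrays, a ratio of 0.932. Without that array the difference was -0.66, against -0.63 with it. Cd163 at A_64_P053012 read -9.07 on NM401 replicate 1 and -8.63 to -8.55 on the others, a ratio of 0.844, at a probe that was well above background on 0 of the 8 arrays. In both cases the array was the NM401 array that shared a slide with the controls, and the part of the slide was not tested.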

How the results depend on the processing

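No receptor changed direction under any alternative. None of the alternatives scaled to the spike-ins, against which every tested receptor would be higher (above). Msr1 and Scarb1 kept their calls in 20 of 20 alternatives. These are not 20 separate checks. Matching through accessions left the values of both as they were, and matching Stab1 by description gave them the same values as no filter on dim probes. The receptors called lower numbered 1 in place of 3 with the slide as a block and within slide 1, where Mrc1 and Clec7a lost their calls (both fits rest on the 1 NM401 array of that slide), and 3 to 4 when each array was left out in turn; those called higher stayed at 1. Those called lower numbered 2 with quantile normalisation, with median scaling and with no filter on dim probes. With median scaling 2 receptors did not overlap between groups, in place of 4. There were 3 with normexp correction, quantile normalisation and the series table, and 6 with no filter, which lets in Marco, Colec12 and Cd163. The share of all genes without overlap was not counted for these settings, so nothing is read from these counts. Olr1 was called lower with normexp correction (adjusted p = 0.0278), with probes well above background on all 8 arrays (0.044), with the series table (0.0263), with the replicate block and without control replicate 1.

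Over all genes, the 3823 called higher became 6113 with median scaling, 2216 with the slide as a block and 752 within slide 1. The 6178 called lower became 9403 with normexp correction, 3360 with median scaling, 3525 with the slide as a block and 1362 within slide 1. The median difference of all genes, -0.10, became 0.11 with median scaling, -0.24 with normexp, -0.21 with the series table and -0.39 with no filter. Leaving out each array gave 3266 to 3712 higher and 5411 to 6146 lower. In the 5 lists, the 22 higher became 34, 11 and 5 with median scaling, the slide as a block and within slide 1 (20 to 24 with an array left out), and the 27 lower became 12 with median scaling and 6 within slide 1 (26 to 29). Fits on slide 1 alone have 5 arrays; the cause of the other moves was not tested.

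Of 497 values of the 25 other named genes followed over the alternatives, 452 kept direction and side of the threshold. A call was lost in 32 and gained in 2 (both Cd36, with quantile normalisation and median scaling), and 11 changed sign. Those were Clec4d (-0.23 with normexp, -0.019 with the series table), Ptpn6 (0.035 with quantile normalisation), Card9 (0.12 with median scaling), Cd36 (-0.073 with the mean of probes, -0.0050 to 0.037 with an array left out, below 0 without control replicate 3) and Syk (-0.053 with the mean of probes, -0.093 with the slide as a block and within slide 1, -0.031 to 0.073 with an array left out, below 0 without control replicate 4 and without NM401 replicate 2). Whether the replicate numbers pair the arrays is not known. Deviations of same-numbered arrays correlated at -0.07 to 0.19 across probes, and 1 of 4 matched its own number best. With so few arrays, and only NM401 replicate 1 on the slide of the controls, these values cannot settle it. With the replicate block, 4 receptors were called lower and 1 higher, the added one being Olr1 (-0.40, adjusted p = 0.0232).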
